A study of Mus musculus with 31 samples.

Results

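The genes described here are 48 enzymes and enzyme partners that add, remove or work around methyl and acetyl marks on histones and DNA. They were taken by symbol from a list of chromatin genes, chosen with earlier results of these data known. All 48 were found among the 24411 entries of the count table. RNA was sequenced from Ly6C-high monocytes of C57BL/6J mice in 3 groups of 3 libraries: blood of healthy mice (healthy blood), blood of mice with a subcutaneous tumor of the Lewis lung carcinoma line, a mouse lung cancer that grows in this strain (LLC blood), and such tumors themselves (LLC tumor). All groups were sorted by one gate, positive for CD11b, negative for Ly6G and MHC-II and high for Ly6C, and the labels name no genetic alteration. These 9 libraries are part of a series of 31 samples, and the chromatin assays among the others were not analysed here. No label says whether animals were pooled or how the replicates relate to animals, nor gives age or time after tumor injection, so p-values measure only the spread between these libraries.

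Chromatin enzymes fall into writers, erasers and remodelers. Methylation of lysine 4 of histone H3 (H3K4) marks promoters and enhancers, H3K36 methylation follows transcribing polymerase, and methylation of H3K9, H3K27 and DNA accompanies silent regions. Acetylation by CREB-binding protein and p300 marks active enhancers and promoters, and the histone deacetylases remove it. The TET enzymes oxidise methylated cytosine. Many of the erasers, the Jumonji demethylases and the TET proteins, need oxygen and 2-oxoglutarate, and some of their genes are textbook targets of hypoxia-inducible factors. Monocytes circulate for a short time and reach tumors already equipped with the chromatin state they acquired in marrow and blood.

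The libraries held 10457492 to 20706412 counts, of which the 48 genes took between 0.402% and 0.554%. Every gene had at least 91 counts in every library and entered the test. Levels are given as normalised CPM (the share of a library's counts, scaled for library composition), and differences as log2 fold changes on that scale. A change was called at an adjusted p under 0.05 among 12337 genes tested. Monocyte markers (8 genes, among them Lyz2, Csf1r and Ccr2) summed to 29798 to 33385 CPM in healthy blood, 20022 to 23575 in LLC blood and 12341 to 20011 in the tumor, with none at 0. In blood 0 of the 8 rose and 1 fell. In the tumor against LLC blood 3 rose and 4 fell, with log2 fold changes from -1.77 to 5.26. Other signals differed between libraries. The 6 fibroblast markers summed to 388.7 CPM in LLC blood 1 against 1.30 and 1.85 in LLC blood 2 and 3, 3.02 to 15.0 in healthy blood and 1172 to 4052 in LLC tumor, with none of the 6 at 0 throughout a group, and the B cell markers reached 176.5 CPM in healthy blood 2 alone. In bulk RNA, fewer cells of a type and less RNA per cell cannot be told apart. In the tables, blood columns are headed with the letters BM. They are read here as blood monocyte from the sample titles, though the values cannot tell this from bone marrow. Sequencing batches are not labelled, and a batch following the groups cannot be told apart from the groups.

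In the blood of tumor-bearing mice the chromatin enzymes were mostly higher or not called: 22 of 48 rose (45.8%) and 1 fell (2.08%), against 14% and 9.61% of all genes tested. Their median log2 fold change was 0.27, against -0.01 over all genes tested. Between LLC blood and LLC tumor the genes split: 12 rose (25%) and 14 fell (29.2%), against 29.6% and 31.7% of all genes, shares near the background. The median of the members was -0.01 here and that of all genes -0.03. The tumor libraries compared with healthy blood gave 24 members higher (50%) and 9 lower (18.8%), against 33.5% and 33%. These 3 comparisons share libraries in pairs, so they are not independent of each other. Groups whose libraries did not overlap were common. In blood 25.7% of all genes tested were higher without overlap and 26.1% lower, and 28 and 6 of the 48 members. In the tumor against LLC blood these shares were 31.3% and 34.5%, and 13 and 16 of the members. The median size of the log2 fold change, without sign, was 0.31 over the members and 0.27 over all genes in blood, and 0.34 and 0.56 in the tumor against LLC blood. One member was called at 2-fold or more in LLC blood (Hdac4), where 6.23% of all genes were, and 4 in LLC tumor against LLC blood, all 4 of them histone demethylases (Kdm5b, Kdm3a, Kdm6b and Kdm4b), whereas 28.7% of all genes tested were called at 2-fold or more in the latter comparison. The composition scaling mattered for the tumor libraries: with library totals alone the median of all genes moved from -0.03 to -0.23, and the members split into 9 higher and 17 lower against LLC blood and 18 higher and 12 lower against healthy blood. In blood, upper-quartile factors gave 22 members higher and 2 lower, and lowered the share of higher genes among all genes called from 59.4% to 46.3%.

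**Figure D1:**
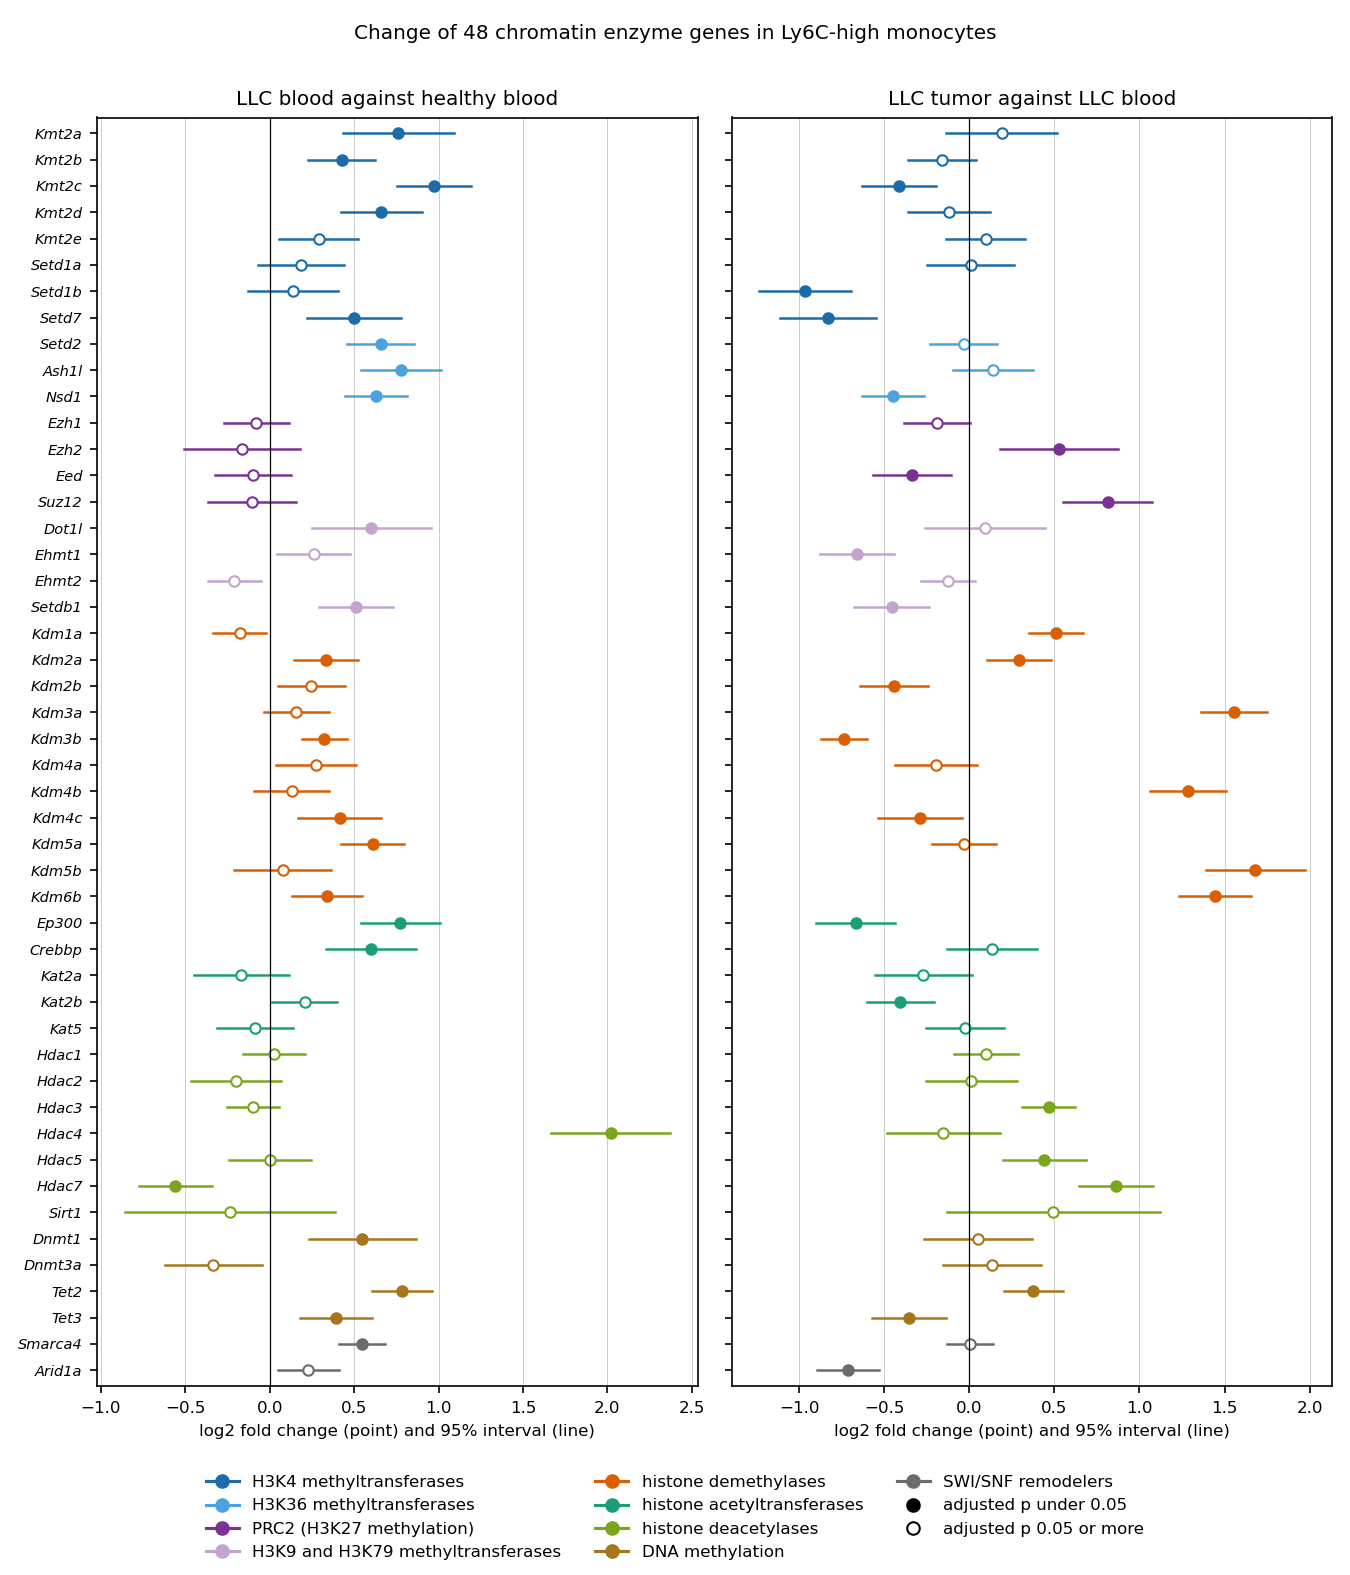
Log2 fold change of each of the 48 genes (rows, grouped by role) for the blood comparison (left) and the comparison of tumor with LLC blood (right), with 95% intervals and filled symbols for called changes. Hdac4 stands alone at 2.02 in blood, and Kdm5b, Kdm3a, Kdm6b and Kdm4b lie above 1 in the tumor.

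Counts by role in blood are to be read against the 14% and 9.61% of all genes tested that rose and fell. Shares by gene size are given below. Of the 8 genes grouped here as H3K4 methyltransferases, 5 rose in LLC blood, none fell and all 8 had a positive value. Kmt2c, a catalytic subunit of enhancer complexes (chr5:25271795-25498855, GRCm38.p6), measured 91.1, 84.8 and 79.4 CPM in the healthy blood libraries and 145, 168 and 187 in LLC blood. Every LLC blood library lay above every healthy one, with a log2 fold change of 0.97 (SE 0.10, adjusted p = 0.000277). Kmt2a, the gene rearranged in mixed-lineage leukemia, went from 67.4, 66.0 and 57.5 CPM to 92.3, 113 and 118, again without overlap, a rise of 0.76 (SE 0.15, adjusted p = 0.00588). Kmt2d, the paralog of Kmt2c, had 191, 196 and 170.0 CPM in healthy blood and 262, 309 and 311 in LLC blood. Its groups did not overlap either, and it rose by 0.66 (SE 0.11, adjusted p = 0.00270). Kmt2b and Setd7 rose by less, 0.43 and 0.50. The Setd1a and Setd1b enzymes, which methylate H3K4 at promoters within the COMPASS complex, had 0.18 (95% interval -0.07 to 0.44) and 0.14 (-0.13 to 0.40), and neither passed the test.

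All 3 H3K36 methyltransferases rose in LLC blood. They are long genes: Setd2 spans 86.1 kb, Nsd1 108.5 kb and Ash1l 129 kb. Of all genes tested, 22.7% of those of 30 to 100 kb and 30.7% of those of 100 kb and over rose. Ash1l, which places H3K36 dimethylation, measured 52.1, 50.9 and 46.2 CPM in healthy blood and 74.0, 86.2 and 94.8 in LLC blood. The lowest LLC blood library was above the highest healthy one, a log2 fold change of 0.78 (SE 0.11, adjusted p = 0.00120). Setd2, the enzyme that trimethylates H3K36 behind elongating polymerase, rose from 105, 105 and 92.8 CPM to 147, 159 and 171, by 0.66 (SE 0.09, adjusted p = 0.00108). Nsd1 rose by 0.63 (adjusted p = 0.000932). Among the H3K9 and H3K79 methyltransferases, Setdb1, which silences retroelements, rose by 0.51 and Dot1l, the H3K79 methyltransferase, by 0.60. The 2 G9a-family enzymes were not called, with values of opposite sign: Ehmt1 had 0.26 (adjusted p = 0.0783) and Ehmt2 -0.21 (adjusted p = 0.0563).

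Polycomb repressive complex 2 (PRC2), which methylates H3K27, gave no call in blood. Its 4 genes, the catalytic Ezh1 and Ezh2 and the core partners Suz12 and Eed, had values between -0.16 (Ezh2) and -0.08 (Ezh1), all slightly negative and all with overlapping libraries. The 95% intervals reached -0.51 at the low end and 0.18 at the high end, both for Ezh2.

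Of the 5 histone acetyltransferases, the 2 enhancer coactivators rose and the other 3 were not called. Ep300, which encodes p300, measured 181, 171 and 151 CPM in healthy blood and 249, 295 and 316 in LLC blood. No LLC blood library reached down to the healthy range, and the change was 0.77 (SE 0.10, adjusted p = 0.00113). Crebbp, its paralog, rose by 0.60 (adjusted p = 0.00657). Kat2b, Kat5 and Kat2a, catalytic subunits of other acetyltransferase complexes, had 0.21, -0.08 and -0.17. The ATPase Smarca4 (BRG1) of the SWI/SNF remodeler rose by 0.55 (adjusted p = 0.000413), and the DNA-binding subunit Arid1a had 0.23 (adjusted p = 0.0677).

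The class IIa histone deacetylases, which shuttle between cytoplasm and nucleus and act as corepressors, held both extremes of the set in blood. Hdac4 (chr1:91928779-92195702) measured 6.29, 5.63 and 5.81 CPM in the healthy blood libraries, 18.8, 27.5 and 25.3 in the LLC blood libraries and 19.7, 24.2 and 20.7 in LLC tumor. It was low in all 3 healthy libraries and about equally high in the other 6. The step in blood was 4.05-fold, 2.02 (SE 0.16, adjusted p = 7.17e-05), and the value from LLC blood to tumor was -0.15 (95% interval -0.48 to 0.18). Hdac7 (chr15:97792661-97844502) moved the other way, as the only member that fell in blood: 44.8, 46.8 and 50.4 CPM in healthy blood, 35.1, 32.0 and 29.5 in the LLC blood libraries and 56.5, 55.1 and 63.9 in LLC tumor. Every LLC blood library lay below every library of the other groups. Its log2 fold change was -0.56 (SE 0.10, adjusted p = 0.00357) in blood and 0.86 (SE 0.10, adjusted p = 5.10e-05) in the tumor. Hdac5, the other class IIa gene of the set, had 0.00 in blood. The class I enzymes Hdac1, Hdac2 and Hdac3 and the NAD-dependent Sirt1 were not called there, between -0.24 (Sirt1) and 0.03 (Hdac1). Hdac9, also class IIa but outside the set, had means of 19.0 CPM in healthy blood, 11.2 in LLC blood and 5.79 in LLC tumor. It was called lower in the tumor against LLC blood (-0.94, adjusted p = 0.0122).

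Among the genes that write and erase DNA methylation, 3 of 4 rose in LLC blood. Tet2 (chr3:133463677-133545136), whose loss drives clonal expansion of blood cells, measured 102, 95.7 and 104 CPM in healthy blood, 157, 187 and 175 in the LLC blood libraries and 222, 229 and 222 in LLC tumor. The 3 groups did not overlap and stood in that order. Tet2 rose by 0.78 (SE 0.08, adjusted p = 0.000278) in blood and by 0.38 (SE 0.08, adjusted p = 0.00226) in the tumor. Tet3 and the maintenance methyltransferase Dnmt1 rose by 0.39 and 0.55, whereas the de novo methyltransferase Dnmt3a had -0.33 (adjusted p = 0.0880) with all LLC blood libraries below the healthy ones. Of the 11 histone demethylases, 5 rose in blood (Kdm5a by 0.61, Kdm4c by 0.41, Kdm6b by 0.34, Kdm2a by 0.33 and Kdm3b by 0.32), and the other 6 ranged from -0.18 (Kdm1a) to 0.27 (Kdm4a).

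**Figure D2:**
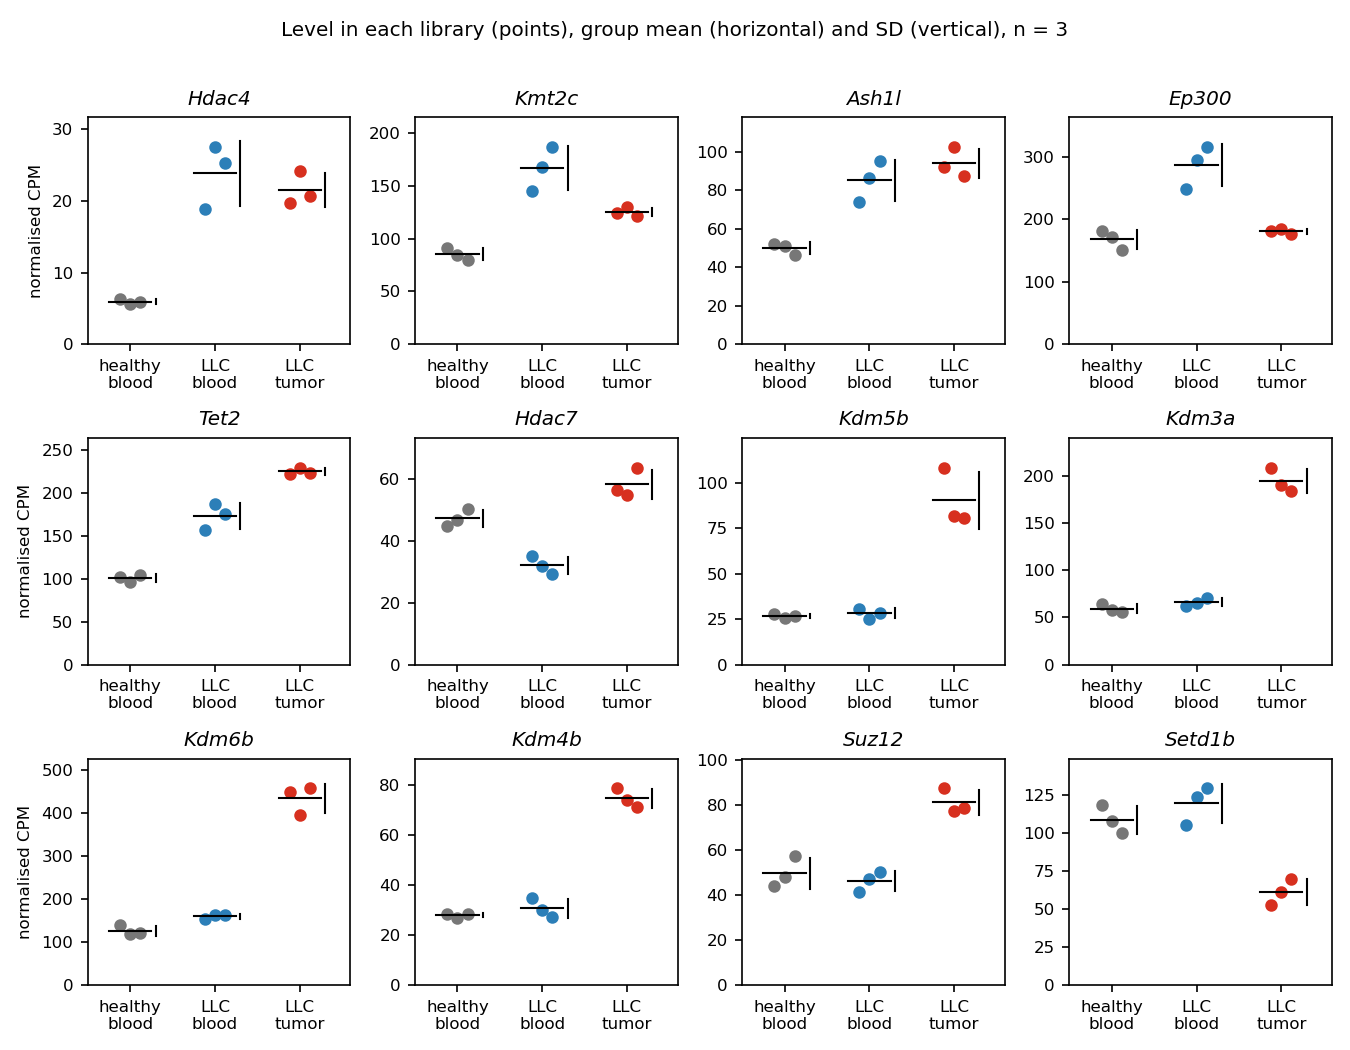
Normalised CPM of selected members in each of the 9 libraries (points) with the group mean (horizontal line) and SD (vertical line), on linear axes from 0, for healthy blood, LLC blood and LLC tumor. Hdac4 is low only in healthy blood, and Hdac7 is lowest in LLC blood. Kdm5b, Kdm3a, Kdm6b and Kdm4b are highest in the tumor, Kdm6b after a smaller rise in blood.

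The blood difference moved with gene size. Genes of this set are long: their median span from start to end of the RefSeq gene was 57.5 kb, against 22.4 kb over the 11748 tested genes with a span. Over all tested genes, the share called higher in LLC blood went from 4.31% below 10 kb to 8.55% at 10 to 30 kb, 22.7% at 30 to 100 kb and 30.7% at 100 kb and over. In the same bins 0 of 2, 2 of 10, 14 of 26 and 6 of 10 members were called higher. By level alone, among genes at or above the mean CPM of the lowest member, 18.1% were called higher. Among genes that were both that abundant and at least 30 kb long, 32.8% were called higher, and of the 36 members of that size 20 were (55.6%). The comparison of tumor with healthy blood also moved with span: 22.9% of genes below 10 kb were called higher and 42.1% lower, against 51.7% and 23.3% at 100 kb and over. Among the abundant genes of at least 30 kb, 44.8% were higher and 26.6% lower there, and of the 36 members of that size 21 were higher (58.3%) and 5 lower (13.9%). Between LLC blood and LLC tumor, 37.9% of genes of 100 kb and over were higher and 30.1% lower. Of the 10 members of that size, 0 were higher and 6 lower. Among the abundant genes of at least 30 kb, 31.6% were higher and 35.8% lower in that comparison. Of the 36 members of that size, 10 were higher (27.8%) and 12 lower (33.3%). The part of gene length in these results was not tested beyond these counts, and the spans are those of genes, not of transcripts.

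**Figure D3:**
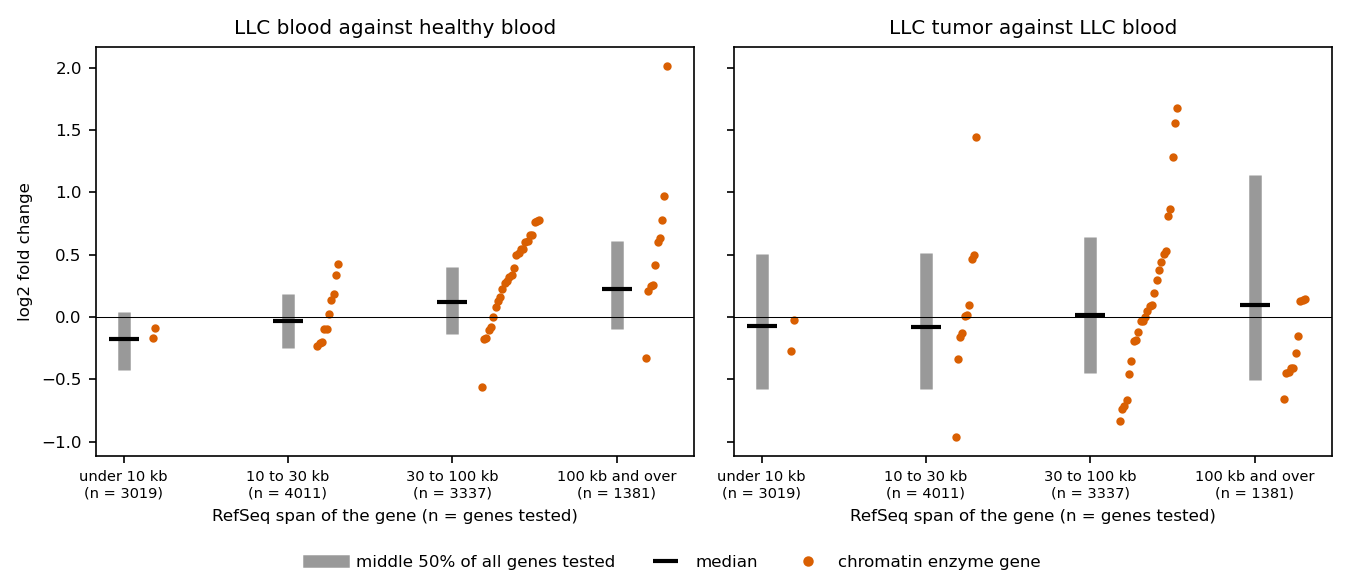
Log2 fold change by bins of gene span (kb) for the blood comparison (left) and the tumor comparison with LLC blood (right): grey bars hold the middle 50% of all genes tested, black marks their median, and points the 48 members. In blood the bin medians climb from -0.18 below 10 kb to 0.22 at 100 kb and over, and the members of 30 kb and over lie mostly above them.

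Markers of other cells also differed between the blood groups. T cell markers summed to 33.1 to 144.0 CPM in healthy blood and 3.95 to 5.33 in LLC blood, with 7 of 7 tested genes lower, and NK cell markers to 214.4 to 496.2 and 36.6 to 56.4, with 8 of 8 lower. None of either list was at 0 throughout a group. Neutrophil markers ran from 179.0 to 359.2 CPM in healthy blood and from 318.4 to 775.8 in LLC blood, with 6 of 12 higher. Dendritic cell markers summed to 68.9 to 82.8 CPM in healthy blood and 23.5 to 37.4 in LLC blood, with 4 of 5 tested genes lower. Cell cycle genes gave 1 of 16 higher and none lower. The 15 dissociation stress genes, which respond to the handling of tissue, summed to 4559 to 6775 CPM in healthy blood. They summed to 4393 in LLC blood 1 and to 1653 and 1465 in LLC blood 2 and 3, with 1 higher and 4 lower. The part of these signals in the blood result was not tested. Without LLC blood 1, the library with the fibroblast signal, 22 members were called higher and 2 lower (Hdac7 and Dnmt3a), and 21 of the 22 were shared. The one lost was Dot1l, at 0.60 with an adjusted p of 0.0505. Leaving out healthy blood 2, the library with the B cell signal, left 14 members higher. The 8 members then lost were Dnmt1 (0.44), Tet3 (0.32), Kmt2b (0.37), Setd7 (0.46), Kdm2a (0.30), Kdm4c (0.34) and Kdm6b (0.24), besides Dot1l (0.50).

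Most of these 8 calls in blood also depended on other single libraries, with no change of sign. Without healthy blood 1, Dnmt1 (0.53), Dot1l (0.57) and Kdm4c (0.44) were not called. Without healthy blood 3 the same held for Tet3 (0.34), Setd7 (0.47), Kdm2a (0.27), Kdm4c (0.41) and Kdm6b (0.31). Leaving out LLC blood 2 ended the calls of Dnmt1 (0.47), Tet3 (0.38), Setd7 (0.46), Dot1l (0.56), Kdm2a (0.36), Kdm4c (0.40) and Kdm6b (0.33). Without LLC blood 3 those of Dnmt1 (0.53), Tet3 (0.33), Setd7 (0.48), Kdm2a (0.29), Kdm4c (0.39) and Kdm6b (0.33) were lost. With library totals Dnmt1 (0.58) and Setd7 (0.53) were not called in blood.

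Of the 11 demethylases, 6 rose and 3 fell in the tumor against LLC blood, a comparison in which 61.3% of all genes tested were called. The 4 with the largest rises were those named above. Kdm5b (chr1:134560178-134632878), which removes H3K4 methylation at promoters, measured 27.9, 25.6 and 26.5 CPM in healthy blood, 30.6, 25.3 and 28.5 in the LLC blood libraries and 108, 81.6 and 80.6 in LLC tumor. Only the tumor libraries were high, 3.21-fold above LLC blood, 1.68 (SE 0.13, adjusted p = 4.88e-06). Kdm3a (chr6:71588970-71632990), an H3K9 demethylase known as a hypoxia-inducible gene, measured 64.4, 57.2 and 55.9 CPM in healthy blood, 62.2, 65.2 and 70.4 in the LLC blood libraries and 209, 190.2 and 184 in the tumor. The 6 blood libraries overlapped, and the tumor rise was 2.94-fold, 1.56 (SE 0.09, adjusted p = 7.33e-07). Kdm6b (chr11:69398508-69420367), the H3K27 demethylase JMJD3 that inflammatory stimuli induce in macrophages, had 139, 117 and 120.5 CPM in healthy blood, 152, 161 and 164 in the LLC blood libraries and 447, 394 and 457 in LLC tumor. It rose 2.72-fold, 1.44 (SE 0.09, adjusted p = 1.77e-06), after the smaller rise in blood. Kdm4b (chr17:56325970-56403774), an H3K9 and H3K36 demethylase and another known hypoxia target, had 28.4, 26.8 and 28.5 CPM in healthy blood, 34.7, 29.8 and 27.3 in the LLC blood libraries and 78.6, 73.8 and 70.9 in the tumor. Its tumor rise was 2.44-fold, 1.28 (SE 0.10, adjusted p = 4.97e-06).

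Promoter sequence was looked up for members whose level rose in the tumor. The table of RefSeq promoters (GRCm38.p6) held a window for 36 of the 48 genes. Kdm5b and Kdm3a, with the largest tumor rises, and Suz12 are shown 5′ to 3′ on the gene's strand. They were chosen after their values were seen, from members that rose and hold a core, and so show where cores lie and not how common they are. Hdac7, which rose by more than Suz12, has 4 windows, of which 1 holds cores. Kdm6b and Kdm4b are not among the 36. The capitals mark the core of the hypoxia response element, ACGTG or GCGTG on either strand. For Kdm5b the 250 bases before the start are given (chr1:134559928-134560177, plus strand), with cores 229 and 19 bases before it. For Kdm3a the 30 bases before the most upstream of 3 starts are given (chr6:71632918-71632947, minus strand), with a core 27 bases before it; the annotated span of the gene reaches further upstream. For Suz12 the 250 bases before the start are given (chr11:79992856-79993105, plus strand), with a core 127 bases before it.
Kdm5b: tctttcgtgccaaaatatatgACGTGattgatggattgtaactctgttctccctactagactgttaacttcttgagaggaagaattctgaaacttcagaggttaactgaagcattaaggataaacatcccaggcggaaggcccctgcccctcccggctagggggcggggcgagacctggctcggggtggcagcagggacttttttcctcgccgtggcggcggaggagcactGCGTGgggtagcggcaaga
Kdm3a: tgtGCGTGtcttgtgagagagagctcttga
Suz12: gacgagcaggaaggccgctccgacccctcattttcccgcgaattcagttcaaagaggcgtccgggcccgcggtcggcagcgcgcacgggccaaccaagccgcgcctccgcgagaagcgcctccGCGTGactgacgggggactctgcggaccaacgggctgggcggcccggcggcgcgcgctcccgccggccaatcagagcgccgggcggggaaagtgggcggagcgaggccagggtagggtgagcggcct
Such short cores are common. Either form was present in the 250 bases before the start in 38.6% of all 32851 windows of that length. By gene, 41.5% of 27025 genes and 21 of the 36 members held one in any of their windows. Both forms contain the letters CG, and the shares were not matched for G and C content. The median over all windows was 52.4% G and C. Windows of members ran from 39.6% (Kdm4c) to 91.6% (Kmt2c), most of them above that median. Of the members with a window, 6 of 8 that rose in the tumor, 6 of 11 that fell and 9 of 17 not called held a core. The 2 that rose and held none were Kdm1a and Hdac5. The AP-1 motif TGANTCA, searched the same way, was in 7.82% of genes and in 3 of the 36 members. A match describes letters in a window and is not a binding site, and the A form overlaps the E-box CACGTG.

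Kdm1a (LSD1, the flavin-dependent H3K4 demethylase) had 51.5, 51.7 and 52.1 CPM in the LLC blood libraries and 72.7, 76.4 and 72.0 in LLC tumor. The tumor libraries were all higher, by 0.51 (SE 0.07, adjusted p = 0.000181). Kdm2a rose by 0.29 (adjusted p = 0.0123). Against these, Kdm3b, the paralog of Kdm3a, had 204, 209 and 209 CPM in the LLC blood libraries and 128, 119 and 126 in the tumor. It fell without overlap, with -0.73 (SE 0.06, adjusted p = 7.48e-06). Kdm2b, with a CpG-island-binding domain like that of Kdm2a, fell by 0.44 (adjusted p = 0.00204), and Kdm4c fell by 0.29 (adjusted p = 0.0440). The Kdm4c call was lost in 11 of 18 alternatives, with values of -0.31 to -0.18, among them DESeq2 (-0.23) and each healthy library, LLC blood 2 or 3, or LLC tumor 2 or 3 left out. Kdm2a was not called without LLC blood 1 (0.25) or 2 (0.23), with library totals (0.10) or with no filter (0.23). Kdm4a and Kdm5a were not called.

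Besides the demethylases and Tet2, 3 of 7 deacetylases and 2 of 4 PRC2 genes rose in the tumor against LLC blood. Of all genes tested, 29.6% rose there. Hdac3, the catalytic subunit of the NCoR corepressor complex, and Hdac5 rose by 0.47 (adjusted p = 0.000303) and 0.44 (adjusted p = 0.00607), and Hdac7 by the 0.86 given above. Sirt1 had 0.49 with a wide 95% interval of -0.13 to 1.12: LLC tumor 1 measured 61.9 CPM and the other tumor libraries 26.6 and 31.3. Suz12 (chr11:79993106-80034123) measured 41.3, 47.0 and 50.1 CPM in the LLC blood libraries and 87.6, 77.4 and 78.9 in the tumor. The groups did not overlap, and Suz12 rose by 0.81 (SE 0.12, adjusted p = 0.000238). Ezh2, the catalytic subunit typical of dividing cells, measured 13.1, 18.5 and 14.5 CPM in the LLC blood libraries and 21.5, 22.7 and 22.4 in the tumor. Ezh2 rose by 0.53 (SE 0.15, adjusted p = 0.0140), a call lost without LLC blood 1 (0.41), without LLC blood 3 (0.47) and with library totals (0.34). Eed fell by 0.34 (adjusted p = 0.0164), a call lost without LLC blood 3 (-0.29) or LLC tumor 2 (-0.25), and Ezh1, the subunit of resting cells, had -0.19 (adjusted p = 0.0861). PRC2 genes moved in both directions, with cell cycle genes at 254 to 563 CPM in LLC blood and 289 to 451 in the tumor (1 of 16 higher, 2 lower).

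Methyltransferases and acetyltransferases were 8 of the 14 members that fell in the tumor. These were 3 of the 8 genes grouped under H3K4, 1 of 3 H3K36 and 2 of 4 H3K9 and H3K79 methyltransferases, and 2 of 5 acetyltransferases. Of all genes tested, 31.7% fell there. Setd1b (chr5:123142040-123168630) measured 118, 108 and 99.7 CPM in healthy blood, 105, 124 and 129 in the LLC blood libraries and 52.8, 60.9 and 69.7 in LLC tumor. Only the tumor libraries were low, and its change of -0.96 (SE 0.12, adjusted p = 0.000105) was the largest fall of any member here. Setd7, which methylates H3K4 and non-histone proteins, went from 90.0, 106 and 104 CPM in LLC blood to 44.8, 61.1 and 62.6 in the tumor, -0.83 (SE 0.13, adjusted p = 0.000333). Kmt2c fell by 0.41 (adjusted p = 0.00467), while Kmt2a, Kmt2b, Kmt2d, Kmt2e and Setd1a were not called. Ehmt1, the partner of G9a in H3K9 dimethylation, had 65.5, 65.1 and 68.5 CPM in the LLC blood libraries and 38.4, 44.6 and 42.8 in the tumor. The groups were separate, with -0.66 (SE 0.10, adjusted p = 0.000289). Setdb1 measured 74.2, 84.1 and 81.8 CPM in the LLC blood libraries and 51.2, 62.8 and 60.9 in the tumor, a fall of the same kind, -0.46 (SE 0.10, adjusted p = 0.00280); part of its reads were shared with other genes in 8 libraries. Nsd1 measured 202, 225 and 231 CPM and 166, 168 and 149 in LLC blood and tumor, -0.45 (SE 0.08, adjusted p = 0.00103).

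The enhancer coactivator Ep300 was near its healthy level in the tumor. It had 182, 184 and 176 CPM in the tumor, so that the tumor libraries lay below LLC blood and near or just above the healthy maximum of 181. Its change was -0.67 (SE 0.10, adjusted p = 0.000404) against LLC blood and 0.11 (95% interval -0.13 to 0.34) against healthy blood. Kat2b (PCAF) fell by 0.41 (adjusted p = 0.00278), and Crebbp was not called at 0.13. Arid1a measured 229, 249 and 257 CPM in the LLC blood libraries and 141, 159 and 149 in the tumor. All tumor libraries were lower, with -0.71 (SE 0.08, adjusted p = 5.46e-05), while the ATPase Smarca4 had 0.00 (95% interval -0.13 to 0.14). Among DNA methylation genes Tet2 rose (0.19 and not called with library totals), Tet3 fell by 0.35 (adjusted p = 0.01002), and Dnmt1 and Dnmt3a were not called.

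The tumor libraries differed from blood in much besides. The 12 hypoxia genes summed to 999 to 1030 CPM in LLC blood and 6799 to 11341 in the tumor, with 11 of 12 higher. The dissociation stress genes summed to 1465 to 4393 and 12810 to 18550 CPM, with 14 of 15 higher, and were highest in LLC tumor 1. Fibroblast markers, as above, were 4 of 6 higher, and epithelial and tumor cell markers summed to 3.69 to 6.00 CPM in LLC blood and 78.9 to 102 in the tumor, with 3 of 4 tested genes higher. Endothelial and platelet markers summed to 55.3 to 90.4 and 143 to 279 CPM in the tumor, against 16.7 to 19.1 and 3.89 to 6.48 in LLC blood. NK cell markers went from 36.6 to 56.4 CPM down to 7.06 to 20.4, with 7 of 8 lower, and neutrophil markers from 318.4 to 775.8 CPM to 220.2 to 405.6, with 7 of 12 lower. In all LLC blood libraries the endothelial Emcn and the epithelial Epcam were at 0. Their part in the changes of the members was not tested. Without LLC blood 1, 10 members were called higher and 14 lower; Ezh2 and Kdm2a (0.25) dropped out. No member changed sign between the settings tried in any comparison in which it was called.

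Over both steps the 48 genes fell into 7 patterns of calls. The LLC blood libraries enter both steps, with opposite sign, so the calls of the steps are not independent. Kdm2a, Kdm6b and Tet2 rose in both. Hdac7 fell and then rose. A group of 8 rose in blood and fell in the tumor (Ep300, Kdm3b, Kdm4c, Kmt2c, Nsd1, Setd7, Setdb1 and Tet3), and 11 rose in blood with no call after it (Ash1l, Crebbp, Dnmt1, Dot1l, Hdac4, Kdm5a, Kmt2a, Kmt2b, Kmt2d, Setd2 and Smarca4). Only the tumor step was called for the other 14 that changed: 8 rose (Ezh2, Hdac3, Hdac5, Kdm1a, Kdm3a, Kdm4b, Kdm5b and Suz12) and 6 fell (Arid1a, Eed, Ehmt1, Kat2b, Kdm2b and Setd1b). The last 11 had no call in either step (Dnmt3a, Ehmt2, Ezh1, Hdac1, Hdac2, Kat2a, Kat5, Kdm4a, Kmt2e, Setd1a and Sirt1). A call in one step and none in the other does not show that the steps differ, and this difference was not tested. Against healthy blood directly, 6 members were called at 2-fold or more, all higher in the tumor, where 32.3% of all genes tested were called at that size in either direction: Hdac4 at 1.87, Kdm6b at 1.79, Kdm5b at 1.76, Kdm3a at 1.71, Kdm4b at 1.41 and Tet2 at 1.16. Kdm3b, which had risen in blood, stood below its healthy level at -0.41 (adjusted p = 0.000245), and so did Setd7 at -0.33, a call lost in 7 of 18 alternatives (-0.37 to -0.28, among them any healthy library or LLC blood 3 left out). Setdb1, Tet3, Nsd1, Kdm4c and Ep300 were not called against healthy blood, between 0.04 (Tet3) and 0.18 (Nsd1). Kmt2e at 0.39, Kat2a at -0.44, Ehmt2 at -0.33 and Ezh1 at -0.27 were called here though in neither step. Ezh1 lost that call without healthy blood 1 (-0.26) or LLC tumor 2 (-0.21). Hdac7 stood at 0.31, a call lost without healthy blood 1 (0.25), healthy blood 2 (0.26) or LLC tumor 3 (0.24), with upper-quartile factors (0.21) and with no filter (0.25). Kmt2b stood at 0.26, a call lost in 11 of 18 alternatives (0.11 to 0.26, among them healthy blood 2 or 3, LLC blood 2, or LLC tumor 2 or 3 left out). With library totals Dnmt1 (0.45), Hdac3 (0.20), Hdac7 (0.14), Kdm1a (0.17), Kmt2b (0.11) and Kmt2e (0.22) were not called.

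Paralogs within one library share its depth and scaling, so their ratio is free of both. The log2 ratio of 17 pairs was taken in each library; its absolute size depends on transcript length and only its shift between groups is read. With 3 libraries against 3, an exact two-sided permutation test cannot go below p = 0.1, so the shifts are given as values. The Kdm3a/Kdm3b ratio was -1.35, -1.55 and -1.56 in healthy blood, -1.71, -1.68 and -1.57 in the LLC blood libraries and 0.70, 0.67 and 0.54 in LLC tumor. It changed sign in every tumor library, a shift of 2.29. Kdm5b/Kdm5a shifted by 1.70 and Kdm4b/Kdm4a by 1.49 in the tumor, neither overlapping with LLC blood. Hdac4/Hdac7 was -2.83, -3.06 and -3.12 in healthy blood, -0.90, -0.22 and -0.22 in the LLC blood libraries and -1.52, -1.19 and -1.62 in the tumor. The blood shift of 2.56 was the largest of any pair in blood, and the tumor shift of -0.999 went part of the way back. Setd1b/Setd1a shifted by -0.96, Ep300/Crebbp by -0.79, Kdm2b/Kdm2a by -0.74 and Ezh1/Ezh2 by -0.73 in the tumor. All 4 were without overlap, as were most of the 17 pairs at this step. Tet3/Tet2 shifted in the same direction at both steps, by -0.39 in blood and -0.73 in the tumor, and Dnmt3a/Dnmt1 in blood by -0.88.

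**Figure D4:**
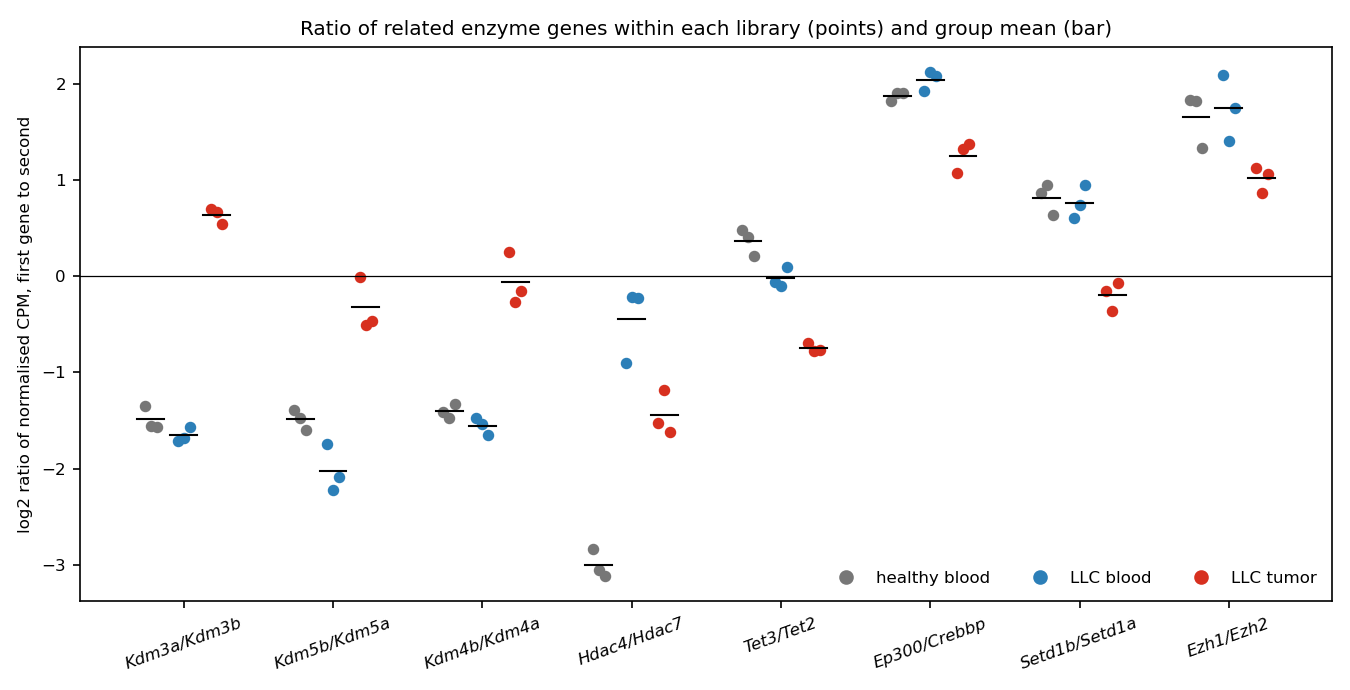
Log2 ratio of normalised CPM within paralog pairs in each library, coloured by group. Kdm3a/Kdm3b, Kdm5b/Kdm5a and Kdm4b/Kdm4a stand apart in the tumor libraries, and Hdac4/Hdac7 in healthy blood.

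Chromatin genes outside the set were taken from lists of partner subunits and related enzymes: 149 genes, of which 147 were in the table and 142 tested. In blood 34 rose and 10 fell (median 0.06), and in the tumor 31 rose and 55 fell against LLC blood (median -0.11). Of all genes tested, 14% rose and 9.61% fell in blood and 29.6% rose and 31.7% fell in the tumor, and the counts of the lists below are to be read against these shares. The other SWI/SNF subunits gave 4 of 19 higher in blood, led by Pbrm1 (0.55) and Arid2 (0.50), and 8 of 19 lower and none higher in the tumor, led by Smarcd2 (-0.79) and Smarca2 (-0.77). Other acetyltransferase genes gave 7 of 19 higher in blood, with the scaffold Trrap at 0.81 and Kat6a at 0.80, and 8 of 19 lower in the tumor, with Kat6a at -0.90. The other demethylases gave 5 of 10 higher and 1 lower in blood. Among them Jmjd1c, a relative of Kdm3a, rose at both steps (0.80 and 0.91), and Jmjd6 rose in the tumor by 1.55.

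Among partner subunits of PRC2, Jarid2, which recruits PRC2 to its targets, rose from a mean of 166 CPM in LLC blood to 392 (1.24, adjusted p = 1.92e-05), and the histone-binding subunit Rbbp7 rose by 1.09. Phf1, an accessory subunit, fell in blood by 0.82, and Hcfc1, a COMPASS-associated factor, rose by 0.61 in blood and fell by 1.06 in the tumor. Over the 17 tested COMPASS and PRC2 partners, 3 rose and 3 fell in blood, and 5 rose and 2 fell in the tumor. Among the other histone methyltransferases, 7 of 23 rose and 8 fell in the tumor. Whsc1 (Nsd2, an H3K36 dimethylase) went from 34.6 to 154 CPM (2.15), and Prmt2, an arginine methyltransferase, from 1.75 to 24.2 (3.77).

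Other deacetylases and corepressors gave 6 of 22 higher and 3 lower in blood. The corepressor subunits Tbl1x, Gatad2b and Rcor1 rose there by 1.62, 1.50 and 1.17. In the tumor 5 rose and 10 fell, among them the mitochondrial Sirt3 at -1.36 and Hdac8 at -1.04. Of 12 other DNA methylation genes, 3 rose in blood and 5 rose and 5 fell in the tumor. The stress-induced Gadd45a, linked to DNA demethylation, rose from 9.33 to 100.2 CPM (3.44), and the thymine glycosylase Mbd4 fell by 2.02. Enzymes that supply methyl and acetyl groups or cofactors gave 3 of 17 higher and 2 lower in blood, and 3 higher and 9 lower in the tumor. Idh1, which makes 2-oxoglutarate in the cytosol, fell from 327 to 113 CPM (-1.53, adjusted p = 5.63e-07). Mat2a, which makes the methyl donor S-adenosylmethionine, fell in blood by 0.56, and Nampt, of NAD synthesis, rose in the tumor by 1.61.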

How the data were processed

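RNA from sorted monocytes was made into TruSeq libraries after TRIzol extraction, per the labels' protocols. The authors deposited estimated counts (expected counts) per gene for 9 libraries, not normalized. Between 8.56% and 9.73% of the values were not whole, as where reads are shared between genes, and counts were rounded here. A second deposited table holds CPM values for 10693 genes: 100% of them were whole reads within a tolerance of 0.02, and 100% equalled the rounded counts. The submitters' processing notes name mm10, Trim Galore, cutadapt 3.4, STAR 2.6.1d, Salmon 1.9.0 and edgeR among their tools, without roles for each; strand handling is not given in the sources used here.

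The 9 libraries were fitted together with edgeR 4.0.16 (R 4.3.3), using the quasi-likelihood test, group as the only term, TMM factors (0.798 in LLC tumor 1 to 1.07) and the filterByExpr filter, which kept 12337 genes. P-values were adjusted by Benjamini-Hochberg over all of them in each comparison, and SEs are the log2 fold change over the root of F. All 3 groups enter so that they share one estimate of the spread. Levels are CPM over the TMM-scaled library size. The pipeline was tested on simulated data. Values per library are given for at most 8 called members per direction with the largest change and a mean of at least 5 CPM in the blood and the LLC tumor against LLC blood comparisons, and at most 3 called genes per list. The members and lists were chosen with earlier results of these data known. Alternatives were DESeq2 1.42.0, limma-voom 3.58.1, other scalings and filters, the replicate block and leaving out each library. The gene Ly6g was not analysed here.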

Additional observations from a re-analysis of the deposited data

How the results depend on the processing

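The replicate numbers are shared by the groups, but libraries with the same number did not deviate together throughout: the correlations of their deviations were 0.30, 0.16 and 0.05 between the blood groups, -0.01, 0.16 and -0.11 between LLC blood and tumor, and 0.06, 0.02 and 0.09 between tumor and healthy blood, and not every library correlated best with its own number. With the replicate block the members called were 22 higher and 1 lower in blood, 12 and 13 in the tumor against LLC blood, and 24 and 9 against healthy blood. It ended the call of Kdm4c in the tumor against LLC blood (-0.30, or -0.27 in the 6 libraries compared). In the 6 libraries compared, the block also left Eed (-0.31) uncalled there, and Ezh1 (-0.27), Kmt2b (0.25) and Setd7 (-0.35) against healthy blood.

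Over single members and alternatives, 2434 values kept their side of the threshold, 85 lost a call, 73 gained one and none reversed.
In the tumor comparisons only a further limit of 2-fold moved a count by over 1.5 times. The blood counts moved by that much in many settings, among them several with a single library left out. With a further limit of 2-fold, members higher and lower numbered 1 and 0 in blood, 4 and 0 in the tumor against LLC blood, and 6 and 0 against healthy blood, and all genes 400 and 369, 2131 and 1407, and 2426 and 1563. The single member lower in blood became 2 with DESeq2, upper-quartile factors or reads recovered from the CPM table, 3 with the replicate block in the 6 libraries compared (added after seeing the data), 4 with those 6 libraries alone and 6 with limma-voom. For all genes in blood, limma-voom called 3003 higher and 2881 lower, an adjusted p under 0.01 left 967 and 419, and the 6 libraries compared gave 2411 lower, or 2386 with the block. The share of higher among all genes called fell from 59.4% to 46.3% with upper-quartile factors in blood, and from 48.3% to 36.3% with library totals in the tumor against LLC blood. Reads recovered from the CPM table gave 1536 higher and 1043 lower in blood, and 3198 and 3730 in the tumor against LLC blood.

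Leaving out one library at a time gave 14 to 23 members higher and 1 to 6 lower in blood (6 without LLC tumor 1), 10 to 13 and 12 to 14 in the tumor against LLC blood, and 22 to 25 and 7 to 10 against healthy blood. For all genes it gave 1019 to 2181 higher and 467 to 2883 lower in blood, 3407 to 4416 and 3473 to 4220 in the tumor against LLC blood, and 3870 to 4687 and 3701 to 4736 against healthy blood. The cause of these shifts was not tested. Members not called may differ by less than the 3 libraries a group can show, and counts of members with shared reads (Kmt2e in 9 libraries, Setdb1 in 8, Hdac5 in 6) depend on how reads were assigned.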
